A study of Canis lupus familiaris with 60 samples.

Results

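The skin under a house dust mite patch was compared between 24 hr and 6 hr after the patch in dogs that were not sensitized to the mite. The members were chosen by the sample labels, as every allergen site of a nonsensitized dog at 24 hr or at 6 hr, paired by animal number. This gave 12 of the 60 arrays of the series, 6 at each time, with 1 array for each biopsy. The dogs were Beagles of 2 to 3 years, 2 males and 4 females. They were the control animals of a study of allergic skin, so the comparison shows how the skin of a control dog differed between an early and a late biopsy under the allergen.

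The chest was shaved 4 days before the patches. The allergen patch held 75 mg of a paste of milled mite (Dermatophagoides farinae) in saline, and it was put back under fresh bandages after the 6 hr biopsies. The saline patch of the same dogs held 50 µl. Biopsies were 8 mm punches of whole skin, taken under 0.5 ml of 2% lidocaine, so each array measured a mixture of epidermis, hair follicles, dermis, vessels and any tissue below them. For comparison, 12 arrays of saline sites of the same dogs at 24 hr and 6 hr were used, as well as 11 arrays of allergen sites of 6 sensitized Beagles (4 males and 2 females, 2 to 3 years) with the same patch and times. The sensitized dogs had received mite paste on the skin weekly over 8 weeks and had reacted to later challenges with skin lesions, and intradermal tests and serum IgE against the mite were positive. Levels are also set beside those of untreated skin of the nonsensitized dogs (0 hr, 6 arrays). These 6 were all in scan session 3, which held none of the 24 hr arrays of these dogs, so a level in untreated skin and a level at 24 hr also differ in session.

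Mite material carries proteases and microbial products that keratinocytes and resident immune cells sense without any earlier exposure. Keratinocytes answer such stimuli with chemokines, among them CCL20, and the endothelium of dermal vessels answers inflammatory cytokines with adhesion molecules such as E-selectin, which slow passing leukocytes. Signals of this kind are held in check by inducible inhibitors and decoy receptors, and later phases of a skin reaction are carried more by macrophages and T cells.

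Between 6 hr and 24 hr the chemokine gene CCL20 fell in 6 of 6 dogs, as did SELE, the gene of E-selectin, and RGS4, whereas IL13RA2, the gene for a decoy receptor of interleukin 13, rose in 6 of 6 dogs. IL13RA2 rose more at the saline sites of the same dogs than under the allergen. For CCL20, SELE and RGS4, the difference from the change at saline sites did not pass the limits given below. With the scan session in the fit, the fall of SELE did not pass them either. A further set of genes with large falls (among them DRD2, GATD1 and PODXL) had mean levels at 24 hr that went with the scan session of the arrays.

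Control spots aside, each array held 61657 spots of 60068 probes, which stand for 54633 identifiers. The signal of a spot, its intensity after background subtraction, was brought to a log2 scale by variance stabilization. All levels and changes below are on this scale, where a change of 1 is 2-fold. The share of spots well above background was 68.85% to 77.59% on the 24 hr arrays and 70.2% to 77.06% on the 6 hr arrays. The number of dogs, 6, limits the precision of each value. The label of the tissue was checked on markers of its layers. KRT2, a keratin of the upper epidermis, was well above background on 6 of 6 arrays at each time, and the same held for the dermal genes DCN, COL1A1 and COL1A2 and for VWF, the gene of a clotting factor made by endothelium.

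Slides differed between the times. The 24 hr arrays were on slide 1 (dogs 2716, 2800, 2845 and 2847), slide 2 (dog 2704) and slide 3 (dog 2802). The 6 hr arrays were on slide 4 (dogs 2704, 2716, 2800 and 2845) and slide 8 (dogs 2802 and 2847). No slide held both times, so among these 12 arrays a difference between slides and a difference between times cannot be told apart. By the scan times in the file headers the slides were scanned in 3 sessions. Session 1 held 5 of the 24 hr arrays, session 2 held the 24 hr array of dog 2802 and 4 of the 6 hr arrays, and session 3 held the other 2. Session 2 was thus the only session with both times, and it held them in different dogs.

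Of 43010 probes tested (38402 identifiers), 1153 were higher at 24 hr (2.68%) and 2760 were lower (6.42%), 9.1% in either direction, with limma and the dog as a block. A probe was called higher or lower when its p, adjusted over all probes tested, was below 0.05 and its change was at least 1.5-fold. The median change was 0.69 among the probes called higher and -0.75 among those called lower, against 0.02 over all probes tested. Of the probes called, 902 rose and 2465 fell in 6 of 6 dogs, and the levels of both times did not overlap for 390 and 840 of them. These probes were called on the same arrays, so such agreement is partly built in. Its share over all probes tested is not given. Probes called higher made up 29.5% of the calls, and 39.5% with quantile normalization. The share was 24.6% with scaling to the 75th percentile and 26.3% with normexp and quantile scaling. When the fold limit was made part of the test (treat, in limma), 1 probe was higher and 0 were lower, with 259 and 1108 at an unadjusted p below 0.05.

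Dog 2802, whose 24 hr array was scanned apart from the other 5, had the smallest changes. The median change of the probes called higher was 0.32 in this dog and 0.68 to 0.95 in the other 5 dogs, and that of the probes called lower was -0.33, against -0.78 to -0.97. Without dog 2802 there were 1644 probes higher and 3280 lower. When the scan session was added as a block to a fit of all 59 arrays, 55 probes were higher and 31 lower. Of these, 41 and 19 were also called without the session. In that fit 99.7% of the probes called higher and 95.2% of those called lower kept their sign, with median changes of 0.42 and -0.27. On the 12 arrays alone, with the session as a block, limma called 0 higher and 7 lower, with 1264 and 1643 at an unadjusted p below 0.05. Between the 1 array at 24 hr and the 4 arrays at 6 hr within session 2, the median difference was 0.35 for the probes called higher and -0.1 for those called lower. With the slide as a random block, 798 were higher and 2326 lower. A fit of the 59 arrays with the slide as a fixed block had 807 higher and 295 lower, with 57.1% and 69.4% of the called probes keeping their sign, and 12 of the named genes called turned direction. There the difference between times within a slide came from slide 8 alone, which held 1 array at 24 hr, from a sensitized dog. Values with the session as a block are given below beside genes called, other than SELPLG, SULT1B1 and SLITRK6, and beside some others where they moved much. They are from the fit of 59 arrays unless the 12 arrays are named. The 7 probes called with the session on the 12 arrays include none of the genes named here.

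A symbol could be given to 1179 of the tested genes, and a gene with several probes is given by its brightest probe. Of these, 32 were higher and 73 lower (2.71% and 6.19%, 8.91% in either direction). Of the 847 genes named through RefSeq, 21 were higher and 65 were lower (2.48% and 7.67%, together 10.2%). Of the 332 genes named only through the study's own supplementary list, 11 were higher and 8 were lower (3.31% and 2.41%, together 5.72%). The study chose that list on arrays that include these, so its genes are not an independent sample. A further 52 of the genes named through RefSeq are also on that list, and genes on it are marked where they are described.

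Among the chemokines, the secreted ligands that draw leukocytes into tissue, 0 of 18 tested members were higher and 4 were lower (7 of the 18 are on the study's list, with 2 of the 4 calls). The list had 33 genes, and its median change was -0.35. CCL20 (NM_001005254), which attracts CCR6-bearing dendritic cells and T cells, fell most of all named genes. Its level was 11.38 at the lowest, 12.04 at the median and 14.98 at the highest at 6 hr, and 9.68 to 11.11 at 24 hr, with a mean of 10.6. The groups did not overlap, and dogs 2704 and 2716 stood well above the other 4 at 6 hr, with 14.7 and 14.98. CCL20 fell by 2.15 (standard error 0.45, 4.45-fold, adjusted p = 0.00605) and was lower in 6 of 6 dogs. In untreated skin its levels were 8.84 to 10.32, mostly under those of either time under the patch. After the session entered the fit as a block, its change was -2.44 (standard error 0.58, adjusted p = 0.0349), and within session 2 the difference was -2.01. This lay between 11.11 in dog 2802 and 4 arrays at 6 hr that include dogs 2704 and 2716, and the other 2 of these had 11.38 and 11.41, so both dogs carry the value. On the 12 arrays alone the change with the session was -2.39 (adjusted p = 0.814).

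CCL4 (on the study's list), which attracts monocytes and T cells, had levels of 6.68 to 8.45 at 6 hr (median 7.23) and 6.33 to 6.86 at 24 hr (median 6.76). The groups overlapped, and CCL4 fell by 0.8 (standard error 0.2, adjusted p = 0.0136) in 6 of 6 dogs. The change was -1.17 with the session as a block (adjusted p = 0.129). CCL25, best known as a chemokine of the gut and thymus, was lower in 6 of 6 dogs by a change of -0.64 (standard error 0.12, adjusted p = 0.00377). It was well above background on 5 of 6 arrays at 24 hr, and its change was -0.54 without dog 2802 and -0.56 without dog 2847, both under 1.5-fold. CCL13 (on the study's list), a ligand of CCR2 and CCR3 that was named after its value was seen, had a change of -0.59 (standard error 0.17, adjusted p = 0.0265) and was lower in 5 of 6 dogs. Without dog 2704, 2716, 2845 or 2847 it was no longer called, with changes of -0.49, -0.49, -0.58 and -0.55. When the session was a block, CCL25 and CCL13 had changes of -0.16 and -0.58 (adjusted p = 0.415 and 0.245), and CCL13 turned direction on the 12 arrays, with 0.11 (adjusted p = 0.982).

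Other chemokines were not called, but some differed much between the times in single dogs. The monocyte attractants CCL2 and CCL8 (both on the study's list) had changes of -0.75 and -1.15 (adjusted p = 0.228 and 0.0587). CCL2 differed by -2.58 in dog 2704 and by -2.75 in dog 2716, and in the other 4 dogs by -0.45 to 0.53. CCL8 differed by -2.73 and -3.08 in the same dogs and by -0.72 to 0.07 in the others, and without dog 2845 it was called, at -1.39. These are the 2 dogs with the highest CCL20 at 6 hr. CCL5, which attracts T cells and eosinophils, had a change of 0.53 (adjusted p = 0.0077) and was higher in 6 of 6 dogs, but passed the fold limit only without dog 2845, at 0.61. Its change was 0.21 with the session as a block (adjusted p = 0.827).

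Of the 6 chemokine receptors tested, 0 were higher and 1 was lower, with a list median of -0.09. CXCR3, the receptor of interferon-induced chemokines on T cells, had a change of -0.64 (standard error 0.13, adjusted p = 0.00611) and was lower in 5 of 6 dogs. Its change was -0.55 without dog 2800, -0.23 with the session as a block (adjusted p = 0.464) and 0.0 (adjusted p = 1.0) with the session on the 12 arrays. CCR4, the receptor of CCL17 on T helper 2 cells, had 6.0 to 6.52 at 6 hr and 5.22 to 5.83 at 24 hr. The groups did not overlap. Its change of -0.58 (standard error 0.08, adjusted p = 0.00127) was just under 1.5-fold and was past it without dog 2802 (-0.62) or dog 2847 (-0.6). Once the session was a block, the change was -0.54 (adjusted p = 0.0317).

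The 12 proinflammatory cytokine genes tested had 0 members called in either direction and a median of -0.04. By limma, TNF, the gene of tumor necrosis factor, had a change of -0.53 (standard error 0.09, adjusted p = 0.00319), was lower in 6 of 6 dogs and was called only without dog 2802, at -0.62. Interleukin 6 (IL6, on the study's list), the inducer of the acute phase response, was too dim to test. It was well above background on 3 of 6 arrays at 6 hr and 1 of 6 at 24 hr, and its highest level was 8.61 at 6 hr and 4.99 at 24 hr. IL17A had -0.4 (adjusted p = 0.0275), and TNFSF13B (on the study's list), a survival factor of B cells, had 0.4 (adjusted p = 0.036).

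Of 7 tested genes for type 2 and regulatory cytokines and their receptors, 1 rose and 0 fell, with a list median of -0.27. The gene that rose was IL13RA2 (NM_001003075, a gene of the study's list), whose product binds interleukin 13 and keeps it from its signaling receptor. Its level was 5.44 to 6.36 at 6 hr (median 5.95), close to the 5.4 to 5.87 of untreated skin, and 6.25 to 8.01 at 24 hr (median 7.2). The groups met only through dog 2802, which had the lowest level at 24 hr. IL13RA2 rose by 1.26 (standard error 0.12, 2.4-fold, adjusted p = 0.000833) and was higher in 6 of 6 dogs by 0.81 to 1.66. With the session as a block the change was 1.27 (standard error 0.26, adjusted p = 0.0155). On the 12 arrays alone the session as a block left 0.42 (adjusted p = 0.843), and within session 2 the difference was 0.26. IL18BP (on the study's list), the soluble inhibitor of interleukin 18, had a change of -1.04 (adjusted p = 0.0537) and was lower in 6 of 6 dogs, by -3.16 in dog 2704 and -1.92 in dog 2716 but by no more than -0.47 in the others. Without dog 2800 it was called, at -1.24.

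**Figure D1:**
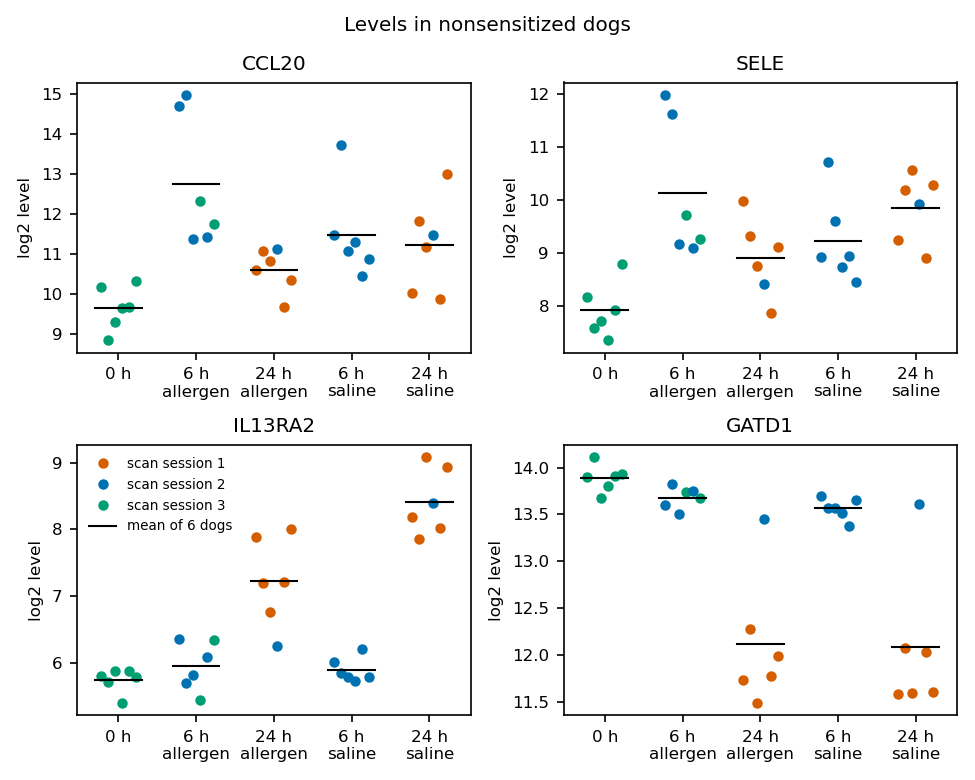
Levels of 4 genes in the 5 groups of nonsensitized dogs, on the log2 scale. Points are arrays colored by scan session and bars are the mean of 6 dogs. At allergen sites CCL20 lay at 9.68 to 11.11 at 24 hr, below the 6 hr arrays, and IL13RA2 lay higher at 24 hr, whereas GATD1 was low on the arrays of session 1 and stayed high on the 24 hr arrays of session 2.

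Of 4 tested vascular adhesion genes, 0 were higher and 2 were lower, and the list median was -0.55. E-selectin (SELE, NM_001003310, a gene of the study's list), which lets leukocytes roll on activated endothelium, had 9.09 to 11.98 at 6 hr (median 9.49) and 7.88 to 9.98 at 24 hr (median 8.93). The groups overlapped. Dogs 2704 and 2716 were again far above the others at 6 hr, with 11.98 and 11.61. SELE fell by 1.23 (standard error 0.26, 2.34-fold, adjusted p = 0.00647) in 6 of 6 dogs. After the session entered the fit as a block, the change was -1.19 (standard error 0.49, adjusted p = 0.214), and within session 2 the difference was -2.05, between 8.42 in dog 2802 and 4 arrays at 6 hr that include dogs 2704 and 2716 (the others had 9.18 and 9.09). The change was -2.64 (adjusted p = 0.706) with the session on the 12 arrays. MADCAM1, the ligand of the gut-homing integrin, had a change of -0.64 (adjusted p = 0.00129) in 6 of 6 dogs, but of -0.05 with the session as a block (adjusted p = 0.925). Its change at saline sites was -0.65. ICAM1 (on the study's list) and VCAM1, which bind leukocyte integrins, had -0.46 and 0.15 (adjusted p = 0.292 and 0.469), with ICAM1 at -1.73 and -1.8 in dogs 2704 and 2716 and at -0.46 to 0.44 in the others.

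RGS4 (TC63365, a gene of the study's list), a brake on signaling by G protein-coupled receptors, had 9.29 to 10.11 at 6 hr (median 9.74) and 7.39 to 9.07 at 24 hr (median 8.35). The groups did not overlap. RGS4 fell by 1.39 (standard error 0.25, 2.62-fold, adjusted p = 0.00315) in 6 of 6 dogs, most in dog 2716 (-2.71) and least in dog 2800 (-0.4). The change was -1.32 with the session as a block (standard error 0.31, adjusted p = 0.0321), and the difference within session 2 was -0.65. With the session on the 12 arrays it was -1.6 (adjusted p = 0.785). PGB1 (NM_001003028, also on the study's list) had 6.01 to 7.56 at 6 hr and 5.56 to 5.92 at 24 hr, with no overlap. It fell by 0.99 (standard error 0.2, adjusted p = 0.00569) in 6 of 6 dogs. The change was -0.92 with the session as a block (adjusted p = 0.105).

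The list of NF-kB and STAT feedback had 0 of 6 tested members higher and 2 lower, with a list median of -0.7. The 6 include TNFAIP6, named as a gene induced by tumor necrosis factor. It was not called and had the lowest change of the list, -0.95. Of these 6, 5 are on the study's list, among them both that fell. SOCS3, which shuts off STAT3 signaling, had a change of -0.73 (standard error 0.22, adjusted p = 0.028) and was lower in 6 of 6 dogs. BCL3, a nuclear partner of NF-kB, had -0.68 (standard error 0.18, adjusted p = 0.0176) and was lower in 5 of 6. Both changed most in dogs 2704 and 2716, by -1.23 and -1.84 for SOCS3 and by -1.2 and -1.51 for BCL3. SOCS3 was not called without dog 2704 (-0.63), 2716 (-0.51) or 2800 (-0.72), nor BCL3 without dog 2704 (-0.58) or 2716 (-0.51). When the session was a block, the changes were -0.61 and -0.53 (adjusted p = 0.388 and 0.172). The 6 pattern receptors and adaptors tested had 0 calls by limma and a median of -0.01, and the 4 interferon response genes had 0 calls and a median of 0.29.

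**Figure D2:**
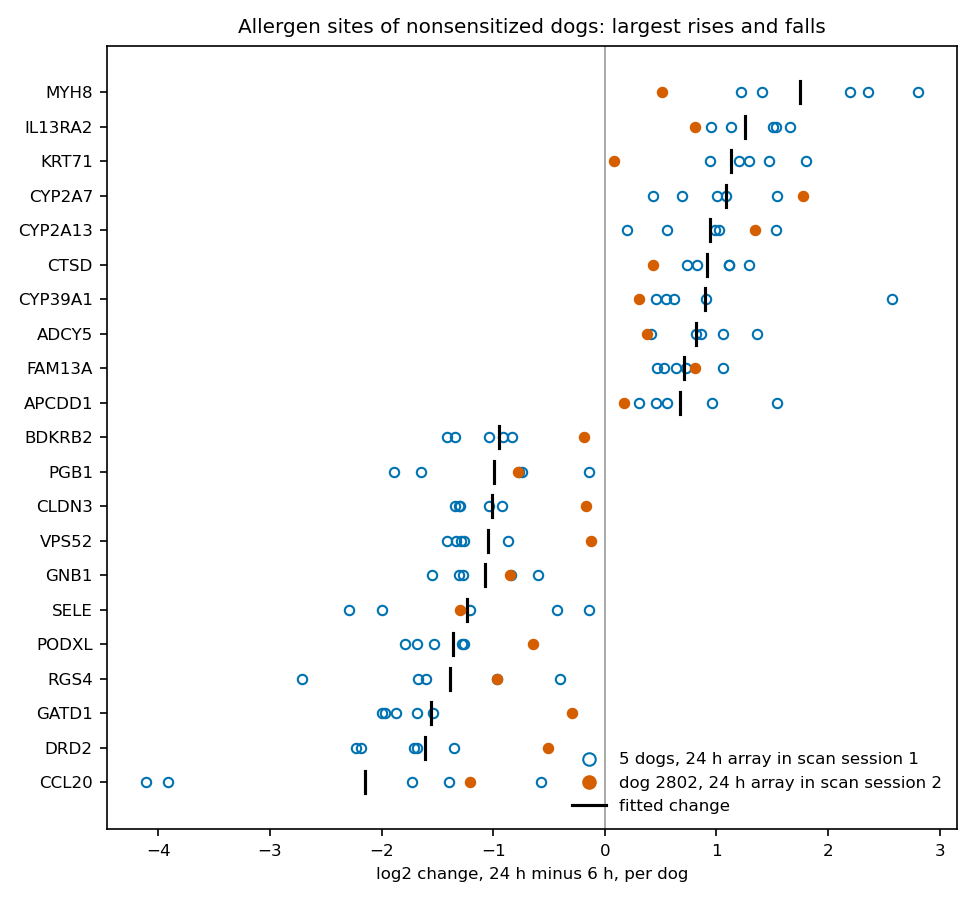
Change from 6 hr to 24 hr in each dog, on the log2 scale, for genes named in the text and well above background on most arrays of each time, among the 12 with the largest rise and the 12 with the largest fall that were called and changed the same way in 6 of 6 dogs. Filled points are dog 2802, whose 24 hr array was scanned in session 2, and black bars are the fitted change. For GATD1 and CLDN3, dog 2802 lies near 0 and apart from the others.

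Of the other genes with the largest falls, a group went with the scan session in mean level. DRD2 (NM_001003110), a dopamine receptor gene, had 9.8 to 10.14 at 6 hr (median 10.04) and 7.62 to 9.57 at 24 hr (median 8.36), without overlap, and the highest value at 24 hr was that of dog 2802. Its change was -1.61 (standard error 0.2, adjusted p = 0.000996) in 6 of 6 dogs and -0.18 with the session as a block (adjusted p = 0.794). Over all 24 hr arrays of the series, of either treatment and either group of dogs, the mean level of DRD2 was 8.13 on the 14 arrays of session 1, 9.77 on the 8 of session 2 and 9.37 on the 1 of session 3. GATD1 (NM_001114640) had 13.5 to 13.82 at 6 hr and 11.49 to 13.45 at 24 hr, and its change was -1.56 (standard error 0.2, adjusted p = 0.0011). In the same 3 sessions its mean at 24 hr was 12.05, 13.61 and 13.52. Its levels in session 1 ranged from 11.49 to 13.68, so not every array there was low. Its change with the session as a block was -0.49 (adjusted p = 0.319).

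The same pattern was found for PODXL, a sialomucin gene of podocytes and endothelium, with a change of -1.36 (standard error 0.14, adjusted p = 0.000833) in 6 of 6 dogs. Its mean at 24 hr was 9.89 in session 1, 11.03 in session 2 and 11.43 in session 3, and with the session as a block the change was -0.32 (adjusted p = 0.397). GNB1, a G protein subunit gene, had -1.07 and VPS52, whose product takes part in transport to the Golgi, had -1.05. Once the session was a block, they had 0.2 and -0.33 (adjusted p = 0.649 and 0.463). For CLDN3, a tight junction gene, and BDKRB2, a bradykinin receptor gene, the changes were -1.01 and -0.95 in 6 of 6 dogs, and -0.3 and -0.36 with the session as a block (adjusted p = 0.326 and 0.209). At saline sites, whose 24 hr arrays were also scanned mostly in session 1, DRD2 changed by -1.6, GATD1 by -1.48, PODXL by -1.38, GNB1 by -1.05, VPS52 by -1.05 and CLDN3 by -1.07. The part of the scan session in these changes was not tested beyond these values.

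Among the largest rises, FAM13A (TC53639, a gene of the study's list) was called with and without the session in the fit of 59 arrays. It had 9.4 to 10.38 at 6 hr (median 9.66) and 10.05 to 11.11 at 24 hr (median 10.32), so that the groups overlapped. FAM13A rose by 0.71 (standard error 0.09, 1.63-fold, adjusted p = 0.00105) in 6 of 6 dogs. The change was 0.75 with the session as a block (standard error 0.12, adjusted p = 0.00095) and the difference within session 2 was 1.09. On the 12 arrays alone it was 1.0 (adjusted p = 0.706) with the session, and not called. Untreated skin had 10.12 to 11.02, so the level at 24 hr was near that of untreated skin and the level at 6 hr was mostly below it.

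The cytochrome P450 genes CYP2A7 (NM_001048027.1) and CYP2A13 (NM_001037345), which code for close relatives in the oxidation of drugs and odorants, rose together. CYP2A7 had 6.49 to 9.14 at 6 hr (median 7.35), 6.92 to 10.15 at 24 hr (median 8.92) and 7.23 to 10.61 in untreated skin (median 8.64). The spread between dogs was wide and the groups overlapped, but the level was higher at 24 hr in 6 of 6 dogs by 0.43 to 1.78. The rise was 1.09 for CYP2A7 (standard error 0.16, adjusted p = 0.0017) and 0.94 for CYP2A13 (standard error 0.16, adjusted p = 0.00265). In the fit with the session, the changes were 0.99 and 0.91 (adjusted p = 0.2 and 0.221). Whether the probes of these genes read each other's transcripts was not tested. CYP39A1 (ENSCAFT00000003209, a gene of the study's list), an enzyme of bile acid synthesis from cholesterol, had a change of 0.9 (standard error 0.26, adjusted p = 0.0237) in 6 of 6 dogs. The change was 2.57 in dog 2847 and 0.31 to 0.91 in the others, and without dog 2847 it was 0.57, under the fold limit. With the session as a block it was 0.8 (adjusted p = 0.108), but on the 12 arrays it turned direction, with -1.63 (adjusted p = 0.556).

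CTSD (NM_001025621), the gene of the lysosomal protease cathepsin D, had 7.83 to 8.57 at 6 hr and 8.65 to 9.8 at 24 hr, without overlap. It rose by 0.92 (standard error 0.11, adjusted p = 0.000975) in 6 of 6 dogs, and by 0.82 at saline sites. When the session was a block, the change was 0.41 (adjusted p = 0.294). ADCY5, an adenylyl cyclase gene, had a change of 0.82 (adjusted p = 0.00204), and APCDD1 (a gene of the study's list), an inhibitor of Wnt signaling in the hair follicle, one of 0.67 (adjusted p = 0.0124), each in 6 of 6 dogs. Once the session was a block, these were 0.61 and 0.48 (adjusted p = 0.34 and 0.161), and without dog 2704 the change of APCDD1 was 0.49 and was not called.

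SELPLG (ENSCAFT00000017991, a gene of the study's list), the leukocyte ligand of selectins, and SULT1B1 (NM_001195835), a sulfotransferase gene, were dim at 6 hr. SELPLG was well above background on 0 of 6 arrays at 6 hr and 6 of 6 at 24 hr, and SULT1B1 on 1 of 6 and 6 of 6. Exact changes are therefore not given for them. With the 6 hr values raised to the lowest level counted as well above background on each array, SELPLG was at least 1.34-fold and SULT1B1 at least 1.3-fold higher.

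Of 10 tested matrix proteases and inhibitors, 0 were higher and 1 was lower (list median -0.18). This was ADAMTS5 (a gene of the study's list), an aggrecan-cleaving protease, with 9.11 to 10.76 at 6 hr (median 10.24), 8.88 to 9.67 at 24 hr (median 9.23) and 10.37 to 10.83 in untreated skin. It fell by 0.83 (standard error 0.14, adjusted p = 0.00292) in 6 of 6 dogs, with -0.29 when the session was a block (adjusted p = 0.517). Of 7 dermal matrix genes, 0 were higher and 1 was lower (median 0.11). TNC, the gene of tenascin C, a matrix protein of remodeling tissue, fell by 0.61 (standard error 0.13, adjusted p = 0.00586) in 6 of 6 dogs. Its change was -0.66 with the session as a block (adjusted p = 0.0476) and -0.74 within session 2, and it was not called without dog 2704 (-0.51) or dog 2800 (-0.57). The collagen genes COL1A1 and COL1A2 had 0.11 and 0.12 (adjusted p = 0.775 and 0.685).

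Of 11 genes of the cornified envelope and barrier, 8 of them on the study's list, 0 passed the limits by limma in either direction, with a median of 0.12. KRT2 had a change of 0.35 (adjusted p = 0.0604), KPRP (on the study's list), a keratinocyte proline-rich protein gene, 0.43 (adjusted p = 0.0502), and KLK5, a protease that loosens the horny layer, 0.31 (adjusted p = 0.0194). These were 0.12, 0.24 and 0.02 with the session as a block (adjusted p = 0.826, 0.666 and 0.955). Among 11 cell junction genes, 0 were higher and CLDN3 was lower, with a median of -0.04. The 7 epidermal lipid genes (median -0.07), the 2 cell cycle genes (median 0.0) and the 6 immediate early and heat shock genes (median -0.2) had 0 calls.

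Of 13 genes for hypoxia and wound growth factors, 0 were higher and 1 was lower (median -0.1). This was VEGFA, the main growth factor of vessels, with a change of -0.62 (standard error 0.14, adjusted p = 0.0077) in 6 of 6 dogs. The change was -0.25 with the session as a block (adjusted p = 0.594), and VEGFA was not called without dog 2800 (-0.52) or dog 2845 (-0.55). Its saline sites changed by -0.69. PDGFRB, the receptor of platelet-derived growth factor on pericytes, had -0.54 (adjusted p = 0.00753) in 6 of 6 dogs and was called without dog 2802 (-0.65) or dog 2845 (-0.6), but had -0.15 with the session as a block (adjusted p = 0.566). Of 4 clock genes tested, 3 are on the study's list, 1 was higher and 0 were lower (median 0.3). The nuclear receptor gene RORA (on the study's list) rose by 0.65 (standard error 0.16, adjusted p = 0.0137) in 6 of 6 dogs, and was not called without dog 2704 (0.48) or dog 2716 (0.58). After the session entered the fit as a block, RORA had 0.39 (adjusted p = 0.328).

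By limma, the 7 prostaglandin and leukotriene genes had 0 calls and a median of 0.15, the 3 glucocorticoid responsive genes 0 and a median of -0.12, and the 14 antioxidant and oxidizing enzymes 0 and a median of 0.03. PTGDS, a prostaglandin D synthase gene, had -0.5 (adjusted p = 0.0109) and was called without dog 2704, at -0.61. PTGER4, a prostaglandin E receptor gene, had 0.32 (adjusted p = 0.00951), and levels that did not overlap, 10.53 to 10.96 at 6 hr and 10.99 to 11.25 at 24 hr. HSD11B1 (on the study's list), the enzyme gene that regenerates cortisol, had 0.55 (adjusted p = 0.00375) in 6 of 6 dogs and was called without dog 2847, at 0.6. AOX2, an aldehyde oxidase gene, had 0.44 (adjusted p = 0.00519) and CYP1A2 -0.49 (adjusted p = 0.00447), each the same way in 6 of 6 dogs. The 19 antigen presentation genes had 0 calls and a median of 0.15, with 0.36 for the class I gene DLA88 (adjusted p = 0.0604) and 0.4 for CTSS, a protease that frees class II molecules (adjusted p = 0.059).

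**Figure D3:**
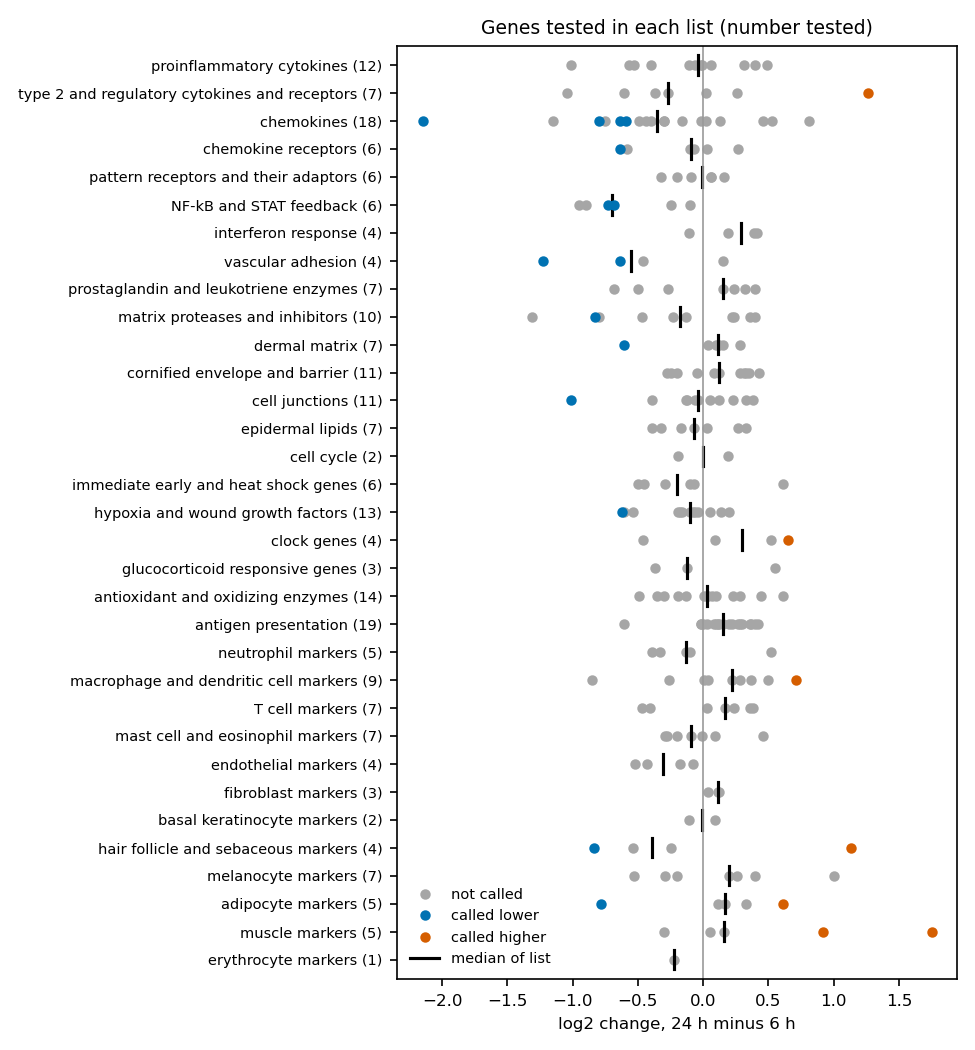
Change from 6 hr to 24 hr of each tested gene in the lists, on the log2 scale, with the number tested in brackets. Points are genes, colored where called, and bars are list medians. The list of NF-kB and STAT feedback has the lowest median, -0.7, and CCL20 lies lowest of all genes shown, at -2.15.

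Markers of cell types were compared next, because in a biopsy fewer cells of a type and less RNA per cell cannot be told apart. Of 9 macrophage and dendritic cell markers tested, 1 was higher and 0 were lower (median 0.22). The mean level of the list was 7.36 to 8.72 at 6 hr (median 7.93) and 7.57 to 8.2 at 24 hr (median 8.08), which overlapped. CD163, a scavenger receptor of macrophages, had a change of 0.71 (standard error 0.24, adjusted p = 0.044) and was higher in 5 of 6 dogs. It was called without dog 2800 but in none of the other fits that left out a dog, where its change was 0.45 (without dog 2845), 0.64 (without 2716), 0.71 (without 2802), 0.77 (without 2704) and 0.8 (without 2847). MRC1 (on the study's list), the mannose receptor of macrophages, had 0.5 (adjusted p = 0.0248) in 6 of 6 dogs and was called without dog 2704, at 0.6. With the session as a block CD163 and MRC1 had 0.55 and 0.53 (adjusted p = 0.367 and 0.293).

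By limma, 0 of 5 neutrophil markers (median -0.13), 0 of 7 T cell markers (median 0.17) and 0 of 7 mast cell and eosinophil markers (median -0.09) were called. S100A8, an abundant neutrophil and keratinocyte protein, had 11.57 to 17.02 at 6 hr and 13.53 to 16.45 at 24 hr, with a change of 0.52 (adjusted p = 0.363). It differed by -1.91 in dog 2704, and without that dog it was called, at 1.0. Its change was 0.87 with the session as a block (adjusted p = 0.515). CD4 and CD8A, the coreceptors of helper and cytotoxic T cells, had -0.47 and -0.41 (adjusted p = 0.00713 and 0.00731), lower in 6 of 6 dogs each, whereas the other 5 T cell markers had 0.03 to 0.38. With the session as a block CD4 turned direction, with 0.08 (adjusted p = 0.805) and 0.31 on the 12 arrays, and CD8A had -0.35. CMA1, the chymase gene of mast cells, had 0.46 (adjusted p = 0.0168), against -0.29 to 0.09 for the other 6 of that list, 5 of them below 0. CAMP, the cathelicidin gene, had -0.39 (adjusted p = 0.00729). The only named B cell marker was too dim to test.

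The 4 endothelial markers had 0 calls and a median of -0.31, the 3 fibroblast markers 0 and 0.11, the 2 basal keratinocyte markers 0 and -0.01, the 7 melanocyte markers 0 and 0.2, and the 1 erythrocyte marker 0 and -0.22. VWF had -0.43 (adjusted p = 0.00809) in 6 of 6 dogs, with 0.04 when the session was a block. NOS3, the nitric oxide synthase gene of endothelium, had -0.52 (adjusted p = 0.0214), and -0.63 without dog 2716, when it was called, but -0.03 with the session as a block (adjusted p = 0.964). The mean level of the endothelial list was 10.8 to 11.64 at 6 hr (median 11.22) and 10.21 to 11.53 at 24 hr (median 10.85). The fall of SELE was larger than the change of any of these 4 markers, and the part of cell number in it was not tested.

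Markers of hair follicles and of fat were called in both directions. Whether the punches held unequal amounts of these structures was not tested. Of 4 hair follicle and sebaceous markers, KRT71, a keratin of the inner root sheath, rose by 1.13 (standard error 0.19, adjusted p = 0.00236) in 6 of 6 dogs, by 0.08 in dog 2802. SOX9, a transcription factor of follicle stem cells, had a change of -0.84 (adjusted p = 0.00113). The list median was -0.39, and with the session as a block KRT71 had 0.55 and SOX9 -0.32 (adjusted p = 0.398 and 0.374). MSX2 had -0.54 (adjusted p = 0.00171) and was called without dog 2847, at -0.59, with -0.29 when the session was a block (adjusted p = 0.268). Of 5 adipocyte markers (median 0.17), UCP2, a mitochondrial carrier gene, rose by 0.61 (adjusted p = 0.00225) and LEP, the leptin gene, had a change of -0.78 (adjusted p = 0.00596) in 5 of 6 dogs. UCP2 was not called without dog 2704 (0.57) or dog 2716 (0.53). The other markers tested, ADIPOQ, PPARG and UCP1, were not called, with changes of 0.17, 0.33 and 0.11. Once the session was a block, UCP2 had 0.35 and LEP -0.78 (adjusted p = 0.344 and 0.256).

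Of 5 muscle markers, 2 were higher and 0 were lower (median 0.16). MYH8 (NM_001077235), a myosin of developing muscle, had 5.99 to 7.35 at 6 hr (median 6.44) and 6.51 to 9.08 at 24 hr (median 8.64). The groups overlapped, and dog 2802 had the smallest change, 0.51. MYH8 rose by 1.75 (standard error 0.26, 3.37-fold, adjusted p = 0.00167) in 6 of 6 dogs. Over the 24 hr arrays of the series its mean was 8.18 in session 1, 6.23 in session 2 and 5.81 in session 3, and with the session as a block its change was 0.67 (adjusted p = 0.529). On the 12 arrays the session as a block turned its direction, with -0.5 (adjusted p = 0.896), and that of MYH7, with -0.68 (adjusted p = 0.908). MYH7, the slow muscle myosin, had 0.92 (adjusted p = 0.0235) in 5 of 6 dogs and 0.24 with the session as a block (adjusted p = 0.886). It was not called without dog 2716 (0.76), 2800 (0.82) or 2847 (0.75). The fast muscle myosin MYH1 had -0.3, the intermediate filament gene DES 0.16 and the brightest probe of the dystrophin gene DMD 0.05. DMD was the 1 gene with probes called in opposite directions. The mean level of the list was 7.05 to 8.34 at 6 hr and 7.45 to 8.2 at 24 hr.

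The saline sites of the same dogs give the background of a change over time. There, 2142 of 42832 probes were higher at 24 hr and 2569 were lower (5.0% and 6.0%). Slides were split by time there as well, with 5 of 6 arrays at 24 hr in session 1 and 6 of 6 at 6 hr in session 2. Of the probes called at allergen sites, 537 were higher at both kinds of site, which is 46.6% of the allergen and 25.1% of the saline list, and 1833 were lower at both, 66.4% and 71.4%. The difference of the changes, allergen minus saline, was tested over 43504 probes. It was positive and called for 285 (0.655%) and negative and called for 347 (0.798%). Of the 347, 29 had fallen at allergen sites and 298 were not called there, and their median change was -0.19 at allergen sites against 0.74 at saline sites. Of the 285, 34 had risen at allergen sites and 250 were not called there, with medians of 0.29 and -0.51.

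The counts against saline sites rested on every dog. They were 3 positive and 2 negative without dog 2704, 85 and 178 without dog 2716, 24 and 18 without dog 2800, 1 and 0 without dog 2802, 0 and 1 without dog 2845, and 0 and 0 without dog 2847. In limma without dogs 2802, 2845 and 2847, 3811, 4537 and 4420 probes were positive and 3576, 3981 and 3500 negative at an unadjusted p below 0.05. Unpaired, the counts were 0 and 2, with 2367 and 2852 at an unadjusted p below 0.05. Treat called 0 and 0, with 80 and 204. The fit of 59 arrays with the session as a block had 589 positive and 926 negative.

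Among the most negative differences from saline sites that were called were those of PTX3, CCL8, CCL2 and CDA, which rose at saline sites and were not called at allergen sites. PTX3 (ENSCAFT00000014125, a gene of the study's list), a soluble pattern receptor made in inflamed tissue, had 4.97 to 7.94 at 6 hr and 9.78 to 11.55 at 24 hr at saline sites. At allergen sites it had 5.24 to 9.45 at 6 hr (median 5.8) and 5.34 to 6.78 at 24 hr (median 5.74), which overlapped. The changes were 4.9 and -0.61, and they differed by -5.51 (standard error 0.84, adjusted p = 0.0232). The difference was -5.46, -5.5 and -5.71 without dogs 2802, 2845 and 2847, when it was not called. IL6 had 4.14 to 7.67 at 6 hr and 6.47 to 7.75 at 24 hr at saline sites, where it was well above background on 1 of 6 and 6 of 6 arrays. No difference is given for IL6, since of the 4 groups in it only saline sites at 24 hr were well above background on most arrays. For CCL8 the saline change was 1.97 and the difference -3.12 (standard error 0.67, adjusted p = 0.0322), and for CCL2 they were 2.32 and -3.07 (standard error 0.64, adjusted p = 0.032). CDA (on the study's list), an enzyme of pyrimidine salvage, had 1.92 and -2.41 (adjusted p = 0.0327). Over the fits that left out a dog, the difference was -3.37 to -2.91 for CCL8, -3.31 to -2.81 for CCL2 and -2.62 to -2.05 for CDA, and of these fits only the one without dog 2716 called it.

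ADAMTS5 and SOCS3 fell at allergen sites and had changes of 1.08 and 1.14 at saline sites, with differences of -1.91 (standard error 0.25, adjusted p = 0.0125) and -1.87 (standard error 0.45, adjusted p = 0.0394). IL13RA2 rose at both, by 2.52 at saline sites, and the difference of -1.25 (standard error 0.31, adjusted p = 0.041) was called. At saline sites its level at 24 hr was 7.85 to 9.08, above most of the allergen sites. CCL13 had a saline change of 0.72 and a difference of -1.31 (adjusted p = 0.0413), TNF 0.02 and -0.54 (adjusted p = 0.0339, short of the fold limit), and MRC1 1.72 and -1.22 (adjusted p = 0.0363). For CCL20, SELE and RGS4 the saline changes were -0.25, 0.62 and -0.42, and the differences of -1.9, -1.85 and -0.97 were not called (adjusted p = 0.137, 0.0748 and 0.132).

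Of the positive differences from saline sites that were called, the 5 largest among named genes were those of SLC1A7, CYP2A13, C12orf28, SERPINB7 and SELENOP. Some that were not called were of like size, such as that of CYP2A7, 1.45 (adjusted p = 0.0524). SLC1A7 (NM_001197159.1), a glutamate transporter gene, rose by 0.69 at allergen sites (adjusted p = 0.0153, 5 of 6 dogs higher) and had -0.88 at saline sites, where it was well above background on 4 of 6 arrays at 24 hr. The difference was 1.58 (standard error 0.27, adjusted p = 0.0284). Without dog 2845 the change at allergen sites was 0.55 and was not called, and with the session as a block it was 0.39 (adjusted p = 0.465). For CYP2A13 the saline change was -0.38 and the difference 1.32 (standard error 0.34, adjusted p = 0.0493). C12orf28 and SERPINB7, a serpin gene of keratinocytes (both on the study's list), had differences of 1.08 and 1.05 (adjusted p = 0.041 and 0.0428), and SELENOP, a selenium carrier gene, one of 1.01 (adjusted p = 0.032). The latter 3 were not called at allergen sites alone, with changes of 0.4, 0.47 and 0.38, and SERPINB7 was called there without dog 2845, at 0.64. CYP2A13, C12orf28, SERPINB7 and SELENOP kept a difference of 1.21 to 1.56, 1.0 to 1.21, 0.94 to 1.29 and 0.93 to 1.15 when a dog was left out but were not called in any of these fits, and SLC1A7 (1.51 to 1.72) was called only without dog 2716.

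The change in nonsensitized dogs was also set against that in sensitized dogs at allergen sites, over 43773 probes. The difference was positive and called for 1383 (3.16%) and negative and called for 2825 (6.45%). Of the 2825, 1776 had fallen in nonsensitized dogs, and their median change was -0.67 there against 0.08 in sensitized dogs. Scan sessions were spread unlike between these groups: of the 24 hr arrays, session 1 held 5 of 6 in nonsensitized but 1 of 5 in sensitized dogs. When the session entered the fit of 59 arrays as a block, the counts were 276 and 170. With the slide as a random block they were 126 and 47. With the slide as a fixed block they were 0 and 0 by limma, with 1394 and 1320 at an unadjusted p below 0.05, and unpaired they were also 0 and 0, with 3923 and 5322. Treat called 0 and 0, with 249 and 490. Without dog 2847 the negative count was 1737.

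Among the most negative differences that were called were those of CCL17, IL18BP, STEAP4 and SLC26A4, of which all but STEAP4 rose in the sensitized dogs. CCL17 (NM_001003051), which attracts CCR4-bearing T helper 2 cells, had 7.51 to 9.11 at 6 hr and 7.59 to 10.67 at 24 hr in nonsensitized dogs, which overlapped, and 7.32 to 10.06 and 10.3 to 13.8 in sensitized dogs, which did not. Its changes were 0.81 (adjusted p = 0.0852, 4 of 6 dogs higher) and 3.69, with a difference of -2.88 (standard error 0.48, adjusted p = 0.00748). In nonsensitized dogs it was called without dog 2845, at 1.16, and had 1.42 with the session as a block (adjusted p = 0.14). SDSL (a gene of the study's list), a serine dehydratase relative, had 5.08 to 6.65 at 6 hr and 7.22 to 8.75 at 24 hr in sensitized dogs. In nonsensitized dogs it was well above background on 3 of 6 arrays at 6 hr and 5 of 6 at 24 hr, so its values there are read partly from background. IL18BP had a difference of -2.11 (adjusted p = 0.018), STEAP4, a metalloreductase gene, -2.02 (adjusted p = 0.0244, with 1.17 in sensitized dogs), and SLC26A4, the anion transporter pendrin, -1.94 (adjusted p = 0.0179). STEAP4 and SLC26A4 are on the study's list, and in nonsensitized dogs they had changes of -0.84 and -0.16 (adjusted p = 0.09 and 0.645). The differences of CCL17, IL18BP, STEAP4 and SLC26A4 were called whichever nonsensitized dog was left out.

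The most positive differences from sensitized dogs that were called, among genes with a symbol, were those of AOX4, FMO2, PITPNM3, SLC1A7 and SLITRK6, of which all but SLITRK6 fell in the sensitized dogs. AOX4, an aldehyde oxidase gene, and FMO2, a flavin-containing monooxygenase gene, are both on the study's list and had changes of 0.04 and 0.23 in nonsensitized dogs (adjusted p = 0.89 and 0.121). In sensitized dogs these were -2.24 and -1.33, and the differences were 2.28 (standard error 0.36, adjusted p = 0.00732) and 1.56 (standard error 0.18, adjusted p = 0.00393). PITPNM3 (on the study's list), a member of a family of phosphatidylinositol transfer proteins, had 1.42 (adjusted p = 0.00789), and SLC1A7 had 1.38 (adjusted p = 0.00748). SLITRK6 (on the study's list), a transmembrane protein gene of neurons, rose by 0.93 in nonsensitized dogs (adjusted p = 0.0474, 5 of 6 higher), by 2.74 in dog 2704 and 1.59 in dog 2716. It was not called without dog 2704 (0.57), 2716 (0.8), 2800 (0.98) or 2847 (1.05). Its difference from sensitized dogs was 1.37 (adjusted p = 0.0416), and was not called without dog 2716 (1.24), 2800 (1.42) or 2847 (1.5).

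Other genes named above differed as well. RGS4 had a change of 0.46 in sensitized dogs and a difference of -1.85 (standard error 0.37, adjusted p = 0.0121), and SELE had 0.12 and -1.35 (standard error 0.38, adjusted p = 0.0323). For IL13RA2 the change in sensitized dogs was 2.41 and the difference -1.15 (standard error 0.2, adjusted p = 0.0093), so that its rise under the allergen was smaller in nonsensitized dogs. FAM13A had -0.33 and a difference of 1.04 (standard error 0.12, adjusted p = 0.00393). For CCL20 the change in sensitized dogs was -0.53 and the difference of -1.63 was not called (adjusted p = 0.0811). Among 19 antigen presentation genes, 0 differences were positive and 11 were negative, with a median of -0.72. Among 11 cornified envelope genes 6 were positive and 0 negative, with a median of 0.72. Over all probes 3.16% were positive and 6.45% negative, with a median of 0.01. With the session as a block the counts over all probes fell to 276 and 170, and the list counts are from the fit without it. Of the 11 cornified envelope genes, 8 are on the list that the study drew from arrays of both groups of dogs, as are 5 of the 19. Among immune cell markers 0 differences were positive. Negative were 4 of 10 macrophage and dendritic cell markers (median -0.73), 4 of 7 T cell markers (-0.67) and 4 of 8 mast cell and eosinophil markers (-0.48). Of 5 neutrophil markers 0 were negative (-0.45).

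The largest changes of all belonged to identifiers without a symbol. DT539692 had 9.35 to 9.6 at 6 hr and 12.81 to 13.33 at 24 hr, and rose by 3.69 (standard error 0.08, 12.9-fold, adjusted p = 1.83e-07) in 6 of 6 dogs. It was the probe that treat called. It rose by 3.62 at saline sites and by 2.73 in sensitized dogs. The mean over the 24 hr arrays was 13.17 in session 1 and 12.88 in session 2, on slides 1 to 3, but the 1 array at 24 hr that was on slide 8 had 9.42, within the range of the 6 hr arrays. TC48497 rose by 1.94 (standard error 0.28, adjusted p = 0.00153) in 6 of 6 dogs, by 0.15 in dog 2802, and its mean at 24 hr was 13.1, 11.35 and 10.86 in sessions 1 to 3. CO607795 had a change of -2.83 (standard error 0.44, adjusted p = 0.00195, 5 of 6 dogs lower) and DN755405 one of -2.49 (standard error 0.37, adjusted p = 0.00154). In dog 2802 these were 0.14 and -0.09. Their means at 24 hr were 9.15 and 7.61 in session 1, 11.97 and 10.09 in session 2 and 12.66 and 10.43 in session 3. Their highest levels in session 1 were 12.27 and 10.64, above the means of session 2. When the session was a block, the changes of TC48497, CO607795 and DN755405 were 0.77, -0.79 and -0.88 (adjusted p = 0.103, 0.362 and 0.245), and that of DT539692 was 2.97 (adjusted p = 9.75e-08). Slide and time could not be told apart for them.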

How the data were processed

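The intensity of each spot is the processed signal deposited by the authors, which Agilent Feature Extraction 10.7.3.1 had made from single-color (Cy3) scans by subtracting background, and which was not yet scaled. Outlier spots (6171 values over 60 arrays) were set to missing. Variance stabilization, reimplemented and tested on simulated data, was fitted on 59 arrays, without specimen 14 (24 hr allergen site of a sensitized dog), which the study left out of its analysis after normalization. Probes well above background on 5 arrays of at least 1 of the groups compared were tested with limma 3.58.1 and statmod 1.5.0 in R 4.3.3, with the dog as a block. The p-values were adjusted after Benjamini and Hochberg over all probes tested. The pairing was checked: after removal of group means, the correlation of the paired arrays was 0.348 to 0.652, against a median of -0.115 to 0.008 with other dogs.

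Chosen to be named were the 12 genes with the largest rise and the 12 with the largest fall called in 6 of 6 dogs, up to 4 members with the smallest p of each of 34 lists, 2 unnamed identifiers in each direction, and 5 genes in each direction for each difference. Some genes chosen by this rule are not named in the text. CCL13 was added after its value was seen. Members and lists were chosen with earlier results of these data known. Symbols came from the RefSeq table of the UU_Cfam_GSD_1.0 assembly (1072 identifiers matched) and the study's gene list, whose lines with several probes were used for membership but not for names. Alternatives covered scaling (75th percentile, quantile, normexp with an offset of 50), series table values, outlier spots, filters, blocks (none, slide, scan session), array weights, a joint fit, thresholds, treat, the mean over probes, specimen 14 and each dog. The fits with scan session as a fixed block were chosen after seeing the data. Tables were made in Python 3.11.15 (pandas 2.3.3, numpy 2.4.6, scipy 1.17.1), plots with matplotlib 3.10.9.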

Additional observations from a re-analysis of the deposited data

Results flagged for a closer look

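Of 92 named genes, 10 had 1 dog whose change from 6 hr to 24 hr was far from those of the other 5, with a gap of more than 0.625 of the whole range. Chance alone gives about 1 in 20. Dog 2802, whose 24 hr array was scanned in another session than the rest, stood apart for CLDN3 (-0.17), CO607795 (0.14), DN755405 (-0.09), GATD1 (-0.29) and TC48497 (0.15). Dog 2704 did so for C12orf28 (1.3), PITPNM3 (1.06) and SLC26A4 (-1.7). The others were dog 2716 for SULT1B1 (1.17) and dog 2847 for CYP39A1 (2.57). SULT1B1 was well above background on 1 of 6 arrays at 6 hr. The change listed for SULT1B1 is therefore read partly from background and is not exact. What set these dogs apart was not tested.

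For 42 named genes the change from 6 hr to 24 hr differed between nonsensitized and sensitized dogs at allergen sites in a test of the difference itself. Over all probes tested, 9.61% had such a difference. Some of the 42 were named for the size of this difference or of their change on these arrays, so their count is partly built in. In log2, nonsensitized minus sensitized, the difference was positive for AOX4 (2.28), FMO2 (1.56), PITPNM3 (1.42), SLC1A7 (1.38), SLITRK6 (1.37), KPRP (1.32), SERPINB7 (1.19), APCDD1 (1.07), FAM13A (1.04), RORA (1.01), CYP2A7 (0.96), C12orf28 (0.78) and KRT2 (0.72). It was negative for CCL17 (-2.88), CO607795 (-2.64), DN755405 (-2.45), SDSL (-2.37), IL18BP (-2.11), STEAP4 (-2.02), SLC26A4 (-1.94), RGS4 (-1.85), DRD2 (-1.55), GATD1 (-1.38), ADAMTS5 (-1.35), SELE (-1.35), PGB1 (-1.29), MRC1 (-1.24), PODXL (-1.19), HSD11B1 (-1.15), IL13RA2 (-1.15), CCL4 (-1.07), VPS52 (-1.05), BDKRB2 (-0.97), PDGFRB (-0.87), CCL25 (-0.83), CCR4 (-0.82), CCL5 (-0.8), CXCR3 (-0.77), CD4 (-0.68), CD8A (-0.67), TNF (-0.64) and VEGFA (-0.63). SDSL was well above background on 3 of 6 arrays at 6 hr in nonsensitized dogs. The difference listed for SDSL is therefore read partly from background and is not exact. Scan sessions were spread unlike between both groups of dogs at 24 hr. Over all probes, the counts of such differences fell from 1383 positive and 2825 negative to 276 and 170 with the session as a block, and to 0 and 0 by limma with the slide as a fixed block (1394 and 1320 at an unadjusted p below 0.05).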

How the results depend on the processing

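With 6 dogs per time and 1 array per biopsy, small changes can be missed, and probes near background are read imprecisely, since a signal close to background shrinks a change. Time and slide cannot be told apart in these arrays, and session 2 alone held both times. The counts against saline sites moved when any dog was left out, and the counts against sensitized dogs when slide or session entered the fit. The cause was not tested for any of the values below.

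Probes higher and lower at 24 hr, 1153 and 2760, were 123 and 440 with a 2-fold limit, 7826 and 8101 without a fold limit, 595 and 1667 with normexp and quantile scaling, and 1 and 0 with treat. Quantile normalization gave 2356 higher and scaling to the 75th percentile 4696 lower. Chosen after seeing the data, the scan session as a block gave 55 and 31 in the fit of 59 arrays and 0 and 7 on the 12 arrays. The slide as a fixed block gave 295 lower. Unpaired, without the dog as a block, the counts were 969 and 2582, and 9 of 156 named genes lost their call. Leaving out a dog gave 928 to 1644 and 2514 to 3280.

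The differences from saline sites, 285 positive and 347 negative, were 53 and 128 with a 2-fold limit, 151 and 181 without the filter on dim probes, 550 and 708 in a joint fit of 10 groups, 564 and 581 with the session as a random block, 589 and 926 with the session and 459 and 760 with the slide as a fixed block, 0 and 0 with treat, and 0 and 2 unpaired, without the dog as a block. Array weights gave 211 negative and no fold limit 566 positive. Leaving out a dog gave 0 to 85 and 0 to 178. In limma at an unadjusted p below 0.05, there were 80 and 204 with treat and 2367 and 2852 unpaired.

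The differences from sensitized dogs, 1383 positive and 2825 negative, were 181 and 467 with a 2-fold limit, 276 and 170 with the session as a block, 126 and 47 with the slide as a random block, and 0 and 0 with the slide as a fixed block, with treat, and unpaired without the dog as a block. No fold limit gave 2753 positive and normexp 1551 negative. Leaving out a dog gave 1025 to 1766 and 1737 to 3431. In limma at an unadjusted p below 0.05, there were 1394 and 1320 with the slide, 249 and 490 with treat and 3923 and 5322 unpaired.

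Of named genes called, these turned direction. With the slide as a fixed block they were CCL13 (0.18), CCL25 (0.09), CD163 (-0.07), CLDN3 (0.29), CO607795 (0.51), CTSD (-0.8), DN755405 (0.11), GNB1 (0.06), KRT71 (-1.56), SOCS3 (0.22), UCP2 (-0.16) and VPS52 (0.34). With the session as a block on the 12 arrays they were CCL13 (0.11), CYP39A1 (-1.63), MYH7 (-0.68) and MYH8 (-0.5), and in the fit of 59 arrays GNB1 (0.2). On the 12 arrays CXCR3 had 0.0. With the values of the series table and with outlier spots kept, 156 of 156 named genes kept their direction and their side of the limits.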
